A study of Homo sapiens with 7 samples.

Results

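The regions described here are the broad H3K27me3 domains found in the HCT116 shUHRF1 line Clone 6 and not in Clone 3. They were selected on that contrast itself, as domains of chromosomes 1 to 22 in the Clone 6 set that share no base with any H3K27me3 domain of Clone 3. The rule kept 632 of the 1803 autosomal Clone 6 domains (35.1%), and these held 37.1 Mb of the 358.3 Mb of autosomal Clone 6 domain sequence (10.4%). HCT116 is an established line of human colorectal cancer cells. Clone 3 and Clone 6 are each a single clonal line of it that carries a doxycycline-inducible short hairpin RNA against UHRF1, the protein that recruits the maintenance DNA methyltransferase DNMT1. No doxycycline was given to either line, so the hairpin was not induced, and the cells were collected at day 14. Chromatin was immunoprecipitated with an antibody against H3K27me3 in 2 samples of each clone. Clone 3 also had 2 H3K9me3 samples and 1 input sample, and an input of Clone 6 was not analysed here. Which control was used to call the Clone 6 domains is not given in the sources used here.

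H3K27me3 is histone H3 trimethylated on lysine 27, the mark written by Polycomb repressive complex 2. It covers promoters of silent developmental genes, often at CpG islands, and also forms broad blankets over silent chromatin between genes. UHRF1 and DNMT1 maintain DNA methylation, and DNA methylation and H3K27me3 tend to occupy different CpG-dense sequence.

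Each clone entered as 1 set in which its replicates had already been combined, so no count, length or share below carries a replicate error and none was tested. The clone, its libraries and its domain calling cannot be told apart. All starts and ends of the Clone 6 set lay on even kb (100% of its domains), whereas in the Clone 3 H3K27me3 set 24.7% of the domains had both edges on even kb. The part of this difference in the bin grid in the selection of the domains was not tested. In the other direction, 772 of the 2332 autosomal Clone 3 domains (33.1%) touched no Clone 6 domain.

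CpG-rich sequence under the Clone 6-only domains is shown by 5 windows of 200 bases, each the most CpG-rich window of its domain outside annotated exons, read on the plus strand of hg38 with the CpGs in capitals. The domains were picked after their values had been seen, and their windows hold 24 to 49 CpGs, while the 28 windows examined hold 13 to 49. These domains are the longest one, the domain of the most CpG-rich window, the domain with the most CpG islands of at least 500 bases and the domains with the most gene starts. In the longest domain, chr18:48010001-48476000, the window chr18:48409393-48409592 lay in an intron of ZBTB7C, which encodes a BTB zinc finger protein, and held 39 CpGs.

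ZBTB7C window: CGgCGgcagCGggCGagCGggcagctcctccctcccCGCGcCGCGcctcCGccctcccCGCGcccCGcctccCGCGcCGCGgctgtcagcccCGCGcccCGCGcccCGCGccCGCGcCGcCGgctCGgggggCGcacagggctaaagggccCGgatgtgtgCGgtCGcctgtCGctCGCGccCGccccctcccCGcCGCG

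The window chr22:44331758-44331957 held 49 CpGs, the most of the 28 windows examined. It lay between genes in chr22:44116001-44442000, the domain with the starts of PARVG and SHISAL1. The domain chr20:63010001-63176000 had 27.96 CpGs per kb, and its window chr20:63072175-63072374 lay in an intron of LINC01749, a long noncoding RNA gene, with 29 CpGs.

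PARVG and SHISAL1 window: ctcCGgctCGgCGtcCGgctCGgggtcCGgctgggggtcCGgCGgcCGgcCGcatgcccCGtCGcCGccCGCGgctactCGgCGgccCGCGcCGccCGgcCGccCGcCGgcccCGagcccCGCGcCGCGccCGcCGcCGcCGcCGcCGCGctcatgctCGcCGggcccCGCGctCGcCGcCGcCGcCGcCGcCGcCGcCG
LINC01749 window: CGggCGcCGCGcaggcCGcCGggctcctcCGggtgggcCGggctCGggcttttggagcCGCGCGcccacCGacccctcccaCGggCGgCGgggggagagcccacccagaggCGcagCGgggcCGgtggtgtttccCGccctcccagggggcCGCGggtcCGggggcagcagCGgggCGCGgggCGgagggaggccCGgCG

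The domains with the most protein-coding gene starts follow. In chr21:44526001-44734000, with 17 starts, the window chr21:44706374-44706573 lay in an intron of TSPEAR with 24 CpGs. In chr14:23350001-23458000, with 6 starts including the cardiac myosin genes MYH6 and MYH7, the window chr14:23365765-23365964 lay between genes, beside the start of EFS at 23365752, and held 25 CpGs.

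TSPEAR and KRTAP10 window: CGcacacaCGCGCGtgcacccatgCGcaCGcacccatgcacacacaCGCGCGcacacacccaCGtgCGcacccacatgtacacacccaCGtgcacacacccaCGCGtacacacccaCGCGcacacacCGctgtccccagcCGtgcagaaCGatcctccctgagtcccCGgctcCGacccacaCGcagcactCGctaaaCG
EFS window: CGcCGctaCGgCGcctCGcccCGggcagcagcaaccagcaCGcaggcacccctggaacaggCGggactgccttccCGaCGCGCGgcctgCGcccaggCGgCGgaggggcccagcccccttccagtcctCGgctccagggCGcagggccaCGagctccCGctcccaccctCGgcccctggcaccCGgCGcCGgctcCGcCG

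The Clone 6-only domains were short, as the rule favours, since a long domain is more likely to touch a Clone 3 domain. How much of the difference in length comes from the rule was not tested. Their median length was 46 kb, with the middle 50% between 36 and 64 kb and a range of 2 to 466 kb, and 64 of them were at least 100 kb long. The 1171 other Clone 6 domains, which touch a Clone 3 domain, had a median of 152 kb and reached 2118 kb. The domains found only in Clone 3 had a median of 38.5 kb, and the other Clone 3 domains one of 93 kb.

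**Figure D1:**
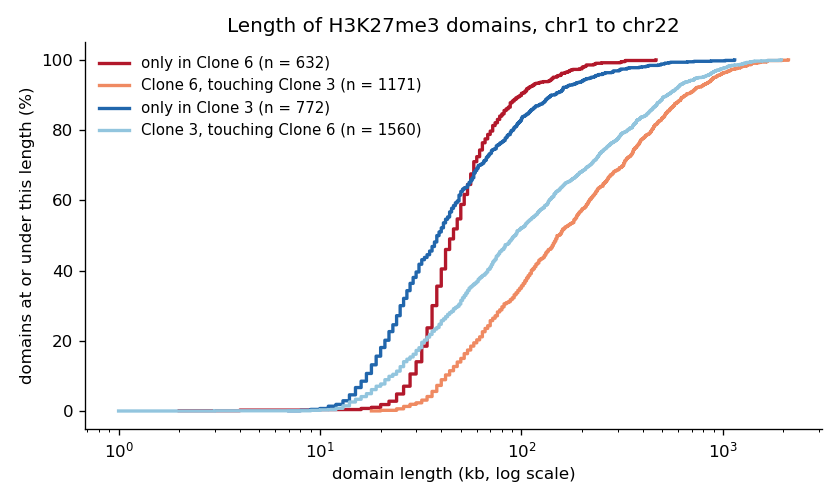
Cumulative share of H3K27me3 domains (y axis, %) by length (x axis, kb, log scale) on chromosomes 1 to 22, for domains found only in Clone 6, the other Clone 6 domains, domains found only in Clone 3 and the other Clone 3 domains. The Clone 6-only curve rises steeply around its median of 46 kb and ends at 466 kb, while the other Clone 6 domains have a median of 152 kb.

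Each domain of the deposited clone sets carries a pair of scores, whose scale and replicate are not given in the sources used here. The lower score of the pair had a median of 16.7 in the Clone 6-only domains and 57.8 in the other Clone 6 domains. It lay under 20 in 422 of the 632 (66.8%) and ranged from 10.6 to 118.3. Longer domains had higher lower scores (Spearman's rho 0.70 across the 632 domains, which share their libraries). A score identical to that of another Clone 6 domain on the same chromosome was found in 181 of the 632 (28.6%), and for 110 (17.4%) the partner was a domain that touches Clone 3. The other 451 domains had unshared scores.

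The longest Clone 6-only domain, chr18:48010001-48476000, spanned 466 kb and held 1 protein-coding start, that of ZBTB7C. It was 262 kb from the nearest Clone 3 domain and had scores of 109.9 and 94.9. The second longest, chr2:40752001-41080000, spanned 328 kb, overlapped no protein-coding gene and had 5.59 CpGs per kb. One of its scores was shared with a Clone 6 domain that touches Clone 3, and most of its length lay in Clone 3 H3K9me3. The domain on chromosome 22 with PARVG, a parvin of blood cell adhesion sites, and SHISAL1 spanned 326 kb with scores of 118.3 and 125.3, the highest lower score of all. The domain chr12:2016001-2330000, of 314 kb, overlapped the body of CACNA1C, the gene of a cardiac and neuronal calcium channel, without its start. This domain also shared a score with a Clone 6 domain that touches Clone 3.

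Domains without a protein-coding gene were among those with the highest lower scores as well. The domains chr1:22176001-22410000 (scores 79.7 and 93.8) and chr1:29330001-29530000 (88.2 and 96.0) overlapped no protein-coding gene. The domain chr11:125172001-125422000 lay in PKNOX2, a homeobox gene, with scores of 115.4 and 130.5 and without its start. The start of LINGO1, which encodes a neuronal receptor component, lay in the 210 kb of chr15:77656001-77866000. VIPR2, a receptor of vasoactive intestinal peptide, started in chr7:159102001-159312000, which also spanned 210 kb and was the closest of all to a chromosome end, at 34.0 kb. RUNX1T1, a transcriptional corepressor, started in a domain of 228 kb on chromosome 8. The RUNX1T1 domain shared a score with a Clone 6 domain that touches Clone 3, and the VIPR2 domain shared one with another Clone 6-only domain.

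Most Clone 6-only domains lay over 100 kb from any Clone 3 domain. The distance to the nearest Clone 3 domain had a median of 257.5 kb, with the middle 50% between 80 and 830.5 kb. It was at most 100 kb for 183 domains (29.0%) and over 1 Mb for 137 (21.7%). Among the 451 domains with unshared scores, 19.5% lay within 100 kb. For comparison, 37.2% of the Clone 3-only domains lay within 100 kb of a Clone 6 domain and 28.8% over 1 Mb away. At the edge of the rule, chr11:96466001-96556000 and chr2:59716001-59844000 were 1 kb from a Clone 3 domain and counted. The domain chr3:26040001-26088000 had 3 kb in a Clone 3 domain and chr21:26524001-26656000 had 6 kb, and neither counted.

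**Figure D2:**
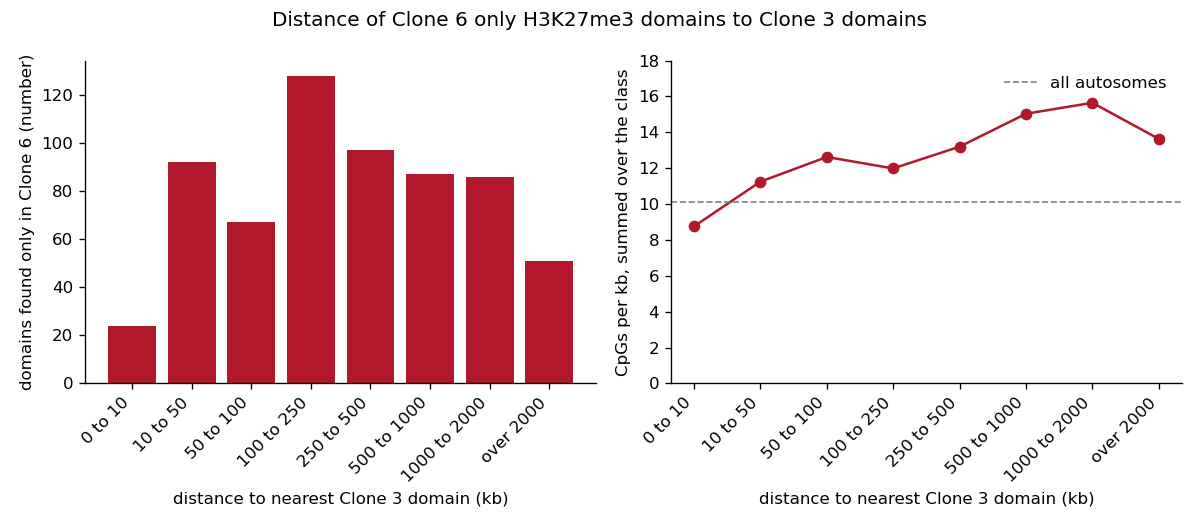
Left, number of Clone 6-only H3K27me3 domains (y axis) by distance to the nearest Clone 3 domain (x axis, kb). Right, CpGs per kb summed over the domains of each distance class, with all autosomes as a dashed line. The largest class, 100 to 250 kb, holds 128 domains, and CpG density is 8.76 per kb in the nearest class and 15.6 per kb at 1000 to 2000 kb.

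Sequence content differed along this distance. The 24 domains at 10 kb or less had 8.76 CpGs per kb and 42.0% GC, and 2 of them held a protein-coding start. The 86 domains at 1000 to 2000 kb had 15.6 CpGs per kb and 48.8% GC, and 32 of them (37.2%) held a start. In between, the share with a start did not follow distance. It was 38.8% at 50 to 100 kb, 28.1% at 100 to 250 kb and 44.3% at 250 to 500 kb. Beyond 2000 kb, 51 domains had 13.6 CpGs per kb. Length did not vary with distance in the same way, with class medians between 38 and 50 kb.

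The 5 most distant domains lay on chromosomes 6 and 17. The domain chr6:63782001-63866000, inside EYS, a gene of photoreceptor maintenance, was 5909 kb away, had 38.1% GC and held no start. On chromosome 17, chr17:63488001-63542000 was 5306 kb away, had 54.4% GC and held the start of KCNH6, a voltage-gated potassium channel gene. The remaining 3 formed a string on chromosome 6, at chr6:33790001-33822000, chr6:33930001-33980000 and chr6:34090001-34146000, between 4613 and 4937 kb away. The first held the start of MLN, the gene of the gut hormone motilin, and the last lay in GRM4, a glutamate receptor gene.

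Clone 6-only domains also occurred in groups. Within 100 kb of another one lay 199 of the 632 (31.5%). Joined at that distance they formed 519 groups, of which 433 were single domains, 66 were pairs and 20 held 3 or more. The largest group, of 5 domains, ran over 932 kb of chromosome 2, from 40616001 to 41548000, with no protein-coding start and 35.5% GC. All 5 carried 1 and the same fourth-column score.

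Every autosome carried Clone 6-only domains, from 13 on chromosome 21 to 60 on chromosome 1. Per 100 Mb of gap-free sequence the number ranged from 10.4 on chromosome 8, 11.2 on chromosome 6 and 11.6 on chromosome 4 to 51.6 on chromosome 20 and 58.7 on chromosome 22. On chromosome 22 they made up 23 of the 39 Clone 6 domains (59.0%), and on chromosome 8 15 of 96 (15.6%). The number per 100 Mb went with the GC content of the chromosome (Spearman's rho 0.83 over 22 chromosomes, which share the libraries and the domain calling).

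Within 5 Mb of a chromosome end lay 117 of the 632 (18.5%), against 9.82% of the other Clone 6 domains and 4.92% of the Clone 3-only domains. These outermost parts make up 7.65% of autosomal length. All 22 autosomes had such a domain, and chromosome 10 had the most, 12. These 117 domains held 19.3 CpGs per kb and the other 515 held 11.6, which is still above the autosomal value of 10.1.

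**Figure D3:**
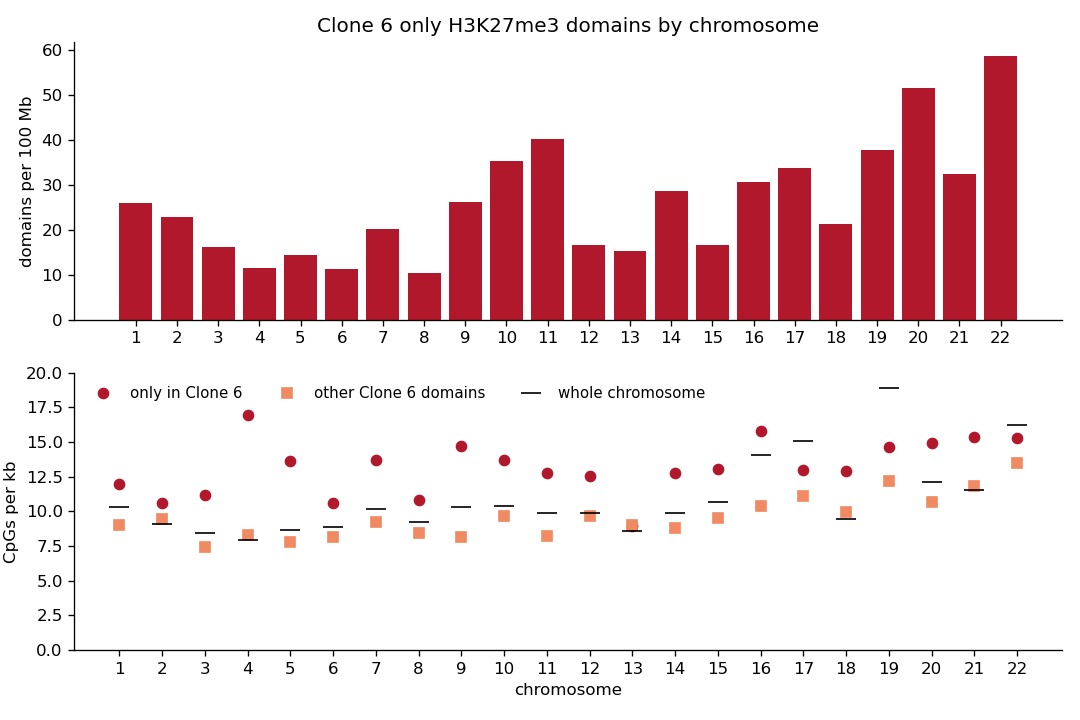
Top, Clone 6-only H3K27me3 domains per 100 Mb of gap-free sequence (y axis) by chromosome (x axis). Bottom, CpGs per kb of the Clone 6-only domains (circles), the other Clone 6 domains (squares) and the whole chromosome (bars). Chromosomes 20 and 22 have the most domains per 100 Mb, 51.6 and 58.7, and the circles lie above the squares on 21 of the 22 chromosomes.

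The sequence under the Clone 6-only domains was rich in CpGs and in GC. Summed over the domains, it held 13.1 CpGs per kb, against 9.15 in the other Clone 6 domains, 6.82 in the Clone 3-only domains and 10.1 over all autosomes. GC content was 46.1%, against 42.1%, 38.8% and 41.0%. By chromosome, CpG density in the Clone 6-only domains was above that of the other Clone 6 domains on 21 of 22 autosomes. On chromosome 13, the exception, the values were 8.96 and 9.01 CpGs per kb. It exceeded that of the whole chromosome on 19 autosomes, and on chromosomes 17, 19 and 22 the chromosome was richer.

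The domains varied widely among themselves. CpG density was between 9.10 and 16.2 per kb in the middle 50% of them, and 428 of the 632 (67.7%) lay above the autosomal value. The richest was chr1:912001-946000 at 47.0 CpGs per kb and 64.6% GC. The poorest was chr5:64372001-64466000 at 3.89 CpGs per kb, without a gene start. GC content reached 50% in 167 domains (26.4%), against 3.25% of the other Clone 6 domains and 0 of the 772 Clone 3-only domains, and was under 38% in 36 (5.70%).

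Low-density CpGs, those whose nearest CpG is at least 20 bp away, made up 48.3% of the CpGs in Clone 6-only domains. Their share was 58.9% in the other Clone 6 domains, 66.7% in the Clone 3-only domains and 52.7% over all autosomes. CpG islands of at least 500 bases numbered 719, or 19.4 per Mb, against 8.66 per Mb in the other Clone 6 domains, 4.57 in the Clone 3-only domains and 14.4 over the autosomes. At least 1 such island lay in 321 domains (50.8%), against 66.8% of the other, longer Clone 6 domains, 23.4% of the Clone 3-only domains and 53.4% of the Clone 3 domains that touch Clone 6. The island count was highest in chr20:63010001-63176000, with 15.

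**Figure D4:**
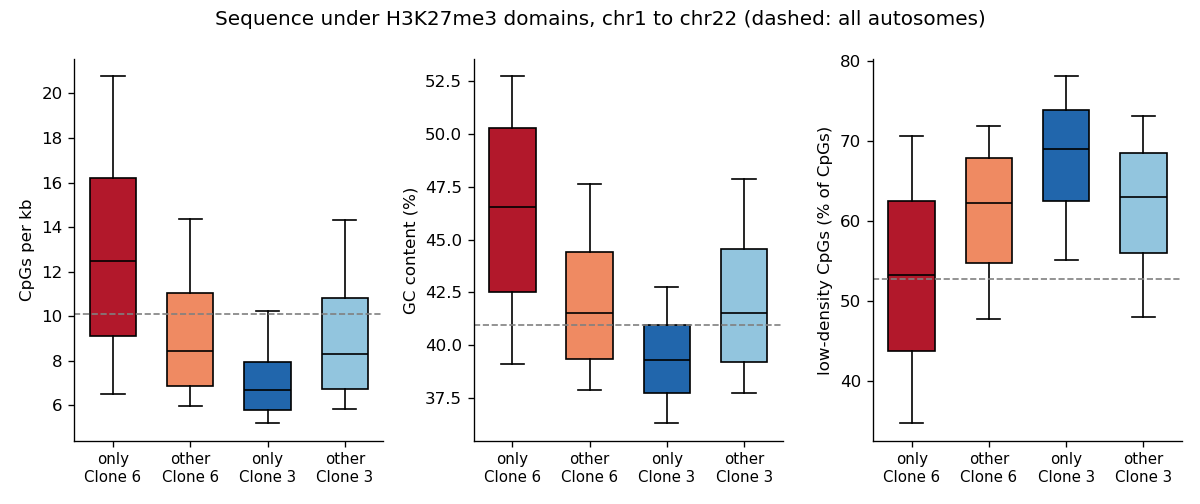
CpGs per kb, GC content (%) and low-density CpGs (% of CpGs) per H3K27me3 domain on chromosomes 1 to 22, as boxes of the middle 50% with the median and whiskers to the 10th and 90th percentiles, for the same 4 sets of domains, with the value over all autosomes as a dashed line. The Clone 6-only box is highest in CpG density and GC content, with medians of 12.5 CpGs per kb and 46.6% GC, and lowest in low-density CpGs, with a median of 53.2%.

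Domains of 30 to 80 kb were also compared, a length class chosen after the data had been seen. There the Clone 6-only domains (468) held 13.1 CpGs per kb, the other Clone 6 domains (325) 9.51 and the Clone 3-only domains (298) 7.03. GC content in this class was 46.2%, 42.0% and 39.2%. An island of at least 500 bases lay in 49.1%, 40.0% and 20.1% of them, so that the order of the Clone 6-only and the other Clone 6 domains was the reverse of that over all lengths.

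A small group of the Clone 6-only domains coincided with H3K9me3 of Clone 3, the mark of constitutive heterochromatin. The overlap touched 32 of the 632 (5.06%) and 16 of them lay wholly inside an H3K9me3 domain. By length it was 2.19 Mb, or 5.92% of the Clone 6-only sequence, against 1.64% of the other Clone 6 domains and 13.6% of the autosomes. Clone 3 H3K9me3 covered 0.787% of the Clone 3-only and 1.15% of the other Clone 3 H3K27me3 domains. Because the rule uses H3K27me3 of that same clone, the comparison with the other Clone 6 domains is not independent of the rule. Of the 2.19 Mb, 37.9% also lay in the clone-shared H3K9me3 set, against 64.0% of the H3K9me3 overlap of the other Clone 6 domains. The shared set held 93.8% of the autosomal H3K9me3 length of Clone 3.

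These 32 domains were poor in GC and in genes. They had 38.1% GC and 7.18 CpGs per kb, against 46.8% and 13.6 in the 600 without H3K9me3, and a median length of 75 kb against 44 kb. Only 2 of them (6.25%) held a protein-coding start, those of NPAS3, a neuronal transcription factor, and RUNX1T1, against 36.5% of the 600. NPAS3 is outside the rule for named genes and was named after its values had been seen. Of the 770 kb of the chromosome 2 group, 639 kb lay in Clone 3 H3K9me3 and 0 kb in the clone-shared H3K9me3 set. A score shared with another Clone 6 domain was found in 23 of the 32 (71.9%) and in 26.3% of the 600. Among the domains with unshared scores the overlap touched 2.00%, and among those of at least 100 kb 15.6%.

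Genes were assigned to a domain by their annotated start. The Clone 6-only domains held the starts of 308 of 19103 autosomal protein-coding genes (1.61%), 8.30 per Mb against 6.93 per Mb over the autosomes. This density depended on length. It was 9.45 per Mb at 30 to 80 kb and 7.22 per Mb at 50 kb or more. At 100 kb or more it was 6.21 per Mb, below that of the autosomes. With unshared scores only it was 9.85 per Mb. The other Clone 6 domains held 1218 starts (6.38%, or 3.79 per Mb) and the Clone 3-only domains 146 (0.764%, or 2.70 per Mb). At least 1 start lay in 221 of the 632 (34.97%), with 1 start in 162, 2 in 49 and 3 or more in 10. In another 165 (26.1%) the domain overlapped a gene without its start, and 246 (38.9%) touched no protein-coding gene. Among the 451 domains with unshared scores, 39.7% held a start.

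Of the other Clone 6 domains, which were longer, 47.9% held a start. In the class of 30 to 80 kb, 34.6% of the Clone 6-only domains held a start, against 19.4% of the other Clone 6 domains and 13.4% of the Clone 3-only domains. Of the 308 genes, 148 (48.1%) lay wholly inside their domain, and 27 had under 10% of their body inside it. Starts of 345 of 18390 long noncoding RNA genes (1.88%) and 28 of 1759 microRNA genes (1.59%) also lay in the Clone 6-only domains, shares near that of protein-coding genes.

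The shares of gene lists that follow are to be read against these shares of all protein-coding genes, 1.61% in Clone 6-only, 6.38% in other Clone 6 and 0.764% in Clone 3-only domains. Regulators of development were the first group of genes read out, in 4 lists by gene symbol. HOX genes pattern the body axis, and HOXA2 and HOXA4 (2 of 39 HOX genes, 5.13%) started in 1 domain, chr7:27102001-27140000. It spanned 38 kb, held 11 CpG islands of at least 500 bases and 27.7 CpGs per kb, and was 1161 kb from Clone 3. None of the other 37 HOX genes started in a Clone 6 or Clone 3 domain.

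Homeobox genes outside the HOX clusters had 11 of 146 starts (7.53%) in Clone 6-only domains, against 31 (21.2%) in other Clone 6 domains and 1 (0.685%) in Clone 3-only domains. Each of the 11 lay in a domain of its own. LHX2, a LIM homeobox gene of forebrain development, was in a domain of 18 kb with 31.5 CpGs per kb, 1201 kb from Clone 3. HMX1 was in chr4:8818001-8930000 (112 kb, 27.2 CpGs per kb, 107 kb away) and BARHL1 in chr9:132412001-132588000 (176 kb, 20.3 CpGs per kb, 268 kb away). TLX1, a regulator of spleen development, was in a domain of 62 kb, 1552 kb away. NKX2-4 stood at the other end, in a CpG-poor domain (9.33 per kb) 15 kb from Clone 3. The other 6 were LHX8, PAX4, NKX2-6, ALX4, POU2F3 and BARX2.

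FOX, SOX, TBX and GATA genes had 4 of 80 starts (5.00%) in Clone 6-only domains. These were GATA3, a regulator of T cell and breast epithelial differentiation, FOXN4, FOXN1, a thymus regulator, and TBX21, a regulator of T helper cells. The GATA3 domain, chr10:8022001-8052000, spanned 30 kb with 31.4 CpGs per kb, 45 kb from Clone 3. The TBX21 domain, chr17:47704001-47750000, was 3715 kb from Clone 3 and had a lower score of 10.8, near the lowest of 10.6. Of 54 developmental basic helix-loop-helix genes, 3 (5.56%) started in Clone 6-only domains, namely ATOH8, NEUROG1, a neuronal determination gene, and HAND1, a gene of heart and placenta development. NEUROG1 was also the 1 of 21 colorectal cancer methylation marker genes found there, in a domain of 32 kb that lay 23 kb from Clone 3.

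Added up after their values had been seen, the 4 lists had 20 of 319 starts (6.27%) in Clone 6-only domains, 50 (15.7%) in other Clone 6 domains and 3 (0.940%) in Clone 3-only domains. The 20 genes lay in 19 domains. Of these, 18 held a CpG island of at least 500 bases, and their CpG density ranged from 9.33 to 31.5 per kb with a median of 20.3.

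**Figure D5:**
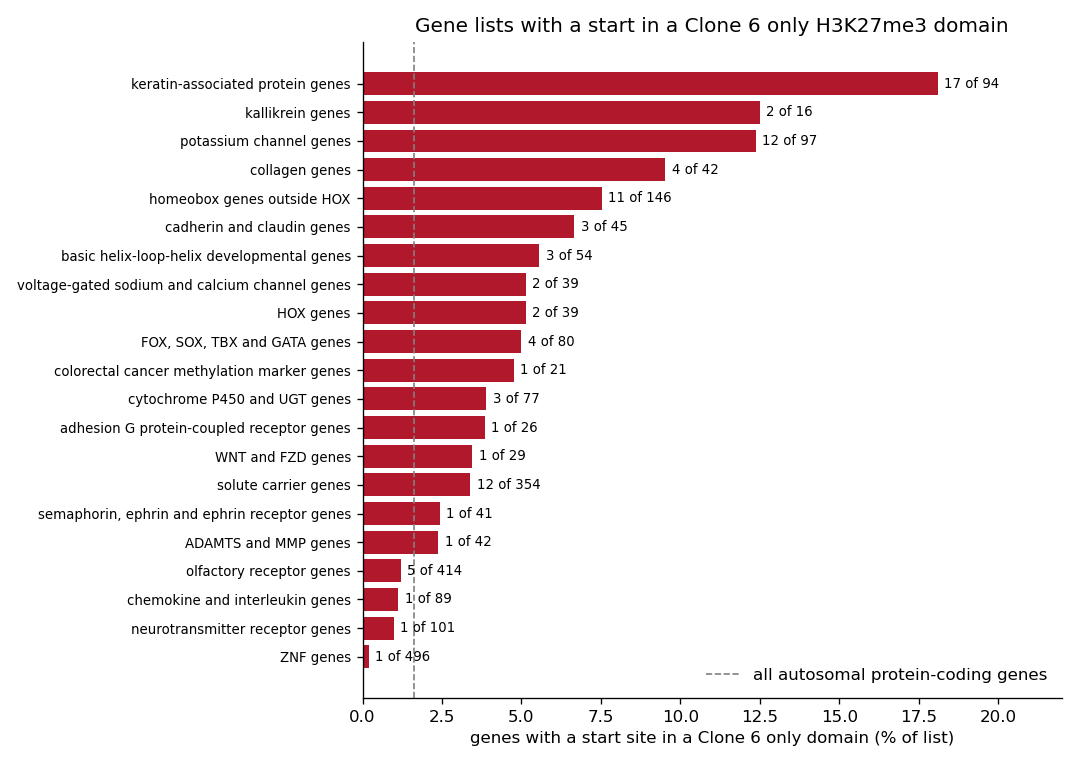
Share of the genes of each list with a start in a Clone 6-only H3K27me3 domain (x axis, %), for the 21 lists with at least 1 such gene (y axis), with the number of genes written beside each bar and the share over all autosomal protein-coding genes, 1.61%, as a dashed line. Keratin-associated protein genes (18.1%), kallikrein genes (12.5%) and potassium channel genes (12.4%) have the longest bars, and 16 of the 17 keratin-associated genes lie in 1 domain.

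Ion channel genes formed the next group. Of 97 potassium channel genes, 12 (12.4%) started in Clone 6-only domains, spread over 9 domains, against 19 (19.6%) in other Clone 6 domains and 1 (1.03%) in Clone 3-only domains. Among them were 3 neighbouring pairs of inward rectifier genes, each pair in 1 domain. Inward rectifiers set the resting potential. KCNJ2 and KCNJ16 lay in chr17:69984001-70294000, a domain of 310 kb, which had 37.8% GC, scores of 163.2 and 76.6 and a distance of 3191 kb to Clone 3. Its score of 163.2 was shared with another Clone 6 domain. KCNJ10 and KCNJ9 lay in chr1:160042001-160084000, 308 kb away. KCNJ1 and KCNJ5 started in chr11:128832001-128892000, 8 kb away, with 2.16% of the KCNJ5 body inside it.

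The other potassium channel genes were KCNMA1, KCNS3, KCNG4, KCNH6, KCNG2 and KCNK15. KCNMA1 had 5.25% of its body inside its domain and KCNS3 0.0318%. KCNG2 lay in chr18:79760001-79842000, with 12 islands of at least 500 bases and 29.6 CpGs per kb. Of 39 voltage-gated sodium and calcium channel genes, 2 (5.13%) started in Clone 6-only domains, SCN4B and CACNA2D2, against 6 (15.4%) in other Clone 6 domains and 5 (12.8%) in Clone 3-only domains. Of 101 neurotransmitter receptor genes, 1 (0.990%) started in a Clone 6-only domain, GABBR2, against 15 (14.9%) in other Clone 6 domains and 2 (1.98%) in Clone 3-only domains.

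Solute carriers move ions, amino acids and other small molecules across membranes. Their starts lay in Clone 6-only domains for 12 of 354 genes (3.39%), in 10 domains, against 24 (6.78%, near the 6.38% of all genes) in other Clone 6 domains and 1 (0.282%) in Clone 3-only domains. SLC6A19 and SLC6A18, neutral amino acid transporters of kidney and intestine, shared chr5:1178001-1252000, with 58.4% GC, 29.6 CpGs per kb and a distance of 688 kb. SLC22A6 and SLC22A8, the renal organic anion transporters, shared chr11:62962001-63020000, 18 kb from Clone 3, whose scores of 14.8 and 265.3 were far apart. SLC12A5, the neuronal potassium chloride cotransporter, and SLC18A2, the vesicular monoamine transporter, lay 284 and 236 kb from Clone 3.

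Keratin-associated protein genes, which encode hair shaft proteins, had 17 of 94 starts (18.1%) in Clone 6-only domains, but 16 of them lay in a single domain. It was chr21:44526001-44734000, with the KRTAP10 and KRTAP12 genes and TSPEAR. It spanned 208 kb, was 871 kb from Clone 3 and had scores of 55.9 and 84.1. The remaining one was KRTAP5-10 on chromosome 11. None of 55 keratin genes started in a Clone 6-only domain, and 12 (21.8%) did in other Clone 6 domains.

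Of 42 collagen genes, 4 (9.52%) started in Clone 6-only domains, COL2A1 of cartilage, COL19A1, and the paired COL4A1 and COL4A2 of basement membranes, which share chr13:110288001-110330000. KLK3, the gene of prostate-specific antigen, and KLK2 were 2 of 16 kallikrein genes (12.5%), both in chr19:50838001-50894000, 517 kb from Clone 3. CDH22, CDH26 and CLDN14 were 3 of 45 cadherin and claudin genes (6.67%). CYP3A4, a major drug-metabolising enzyme of liver and gut, CYP3A43 and CYP11A1 were 3 of 77 cytochrome P450 and UGT genes (3.90%). Of the last list, 15 (19.5%) started in other Clone 6 domains and 2 (2.60%) in Clone 3-only domains. Other Clone 6 domains also held 6 collagen starts (14.3%), 2 cadherin and claudin starts (4.44%) and 0 kallikrein starts.

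Other lists had single genes there. They were WNT7A of 29 WNT and FZD genes (3.45%), ADGRA1 of 26 adhesion receptor genes (3.85%), EPHA10 of 41 semaphorin and ephrin family genes (2.44%), ADAMTS8 of 42 ADAMTS and MMP genes (2.38%) and IL25 of 89 chemokine and interleukin genes (1.12%). The lists of olfactory receptor genes (5 of 414, 1.21%), chemokine and interleukin genes and neurotransmitter receptor genes had shares near or below the 1.61% of all genes. ZNF516 was the 1 of 496 ZNF genes (0.202%). Chemokine and interleukin genes had 8 starts (8.99%) in other Clone 6 domains and also 8 in Clone 3-only domains. Olfactory receptor genes had 156 starts (37.7%) in other Clone 6 domains and 21 (5.07%) in Clone 3-only domains.

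No start in a Clone 6-only domain was found for 10 of the 31 lists. Among them were 80 ribosomal protein, 81 histone, 29 Polycomb and 17 DNA methylation machinery genes, none of which started in any H3K27me3 domain of either clone. None of the 53 clustered protocadherin genes started in one either. For UHRF1 the nearest Clone 6-only domain was 1653 kb from the start, for DNMT1 147.3 kb, for STC2 363.6 kb, for SFRP1 552.5 kb and for RPL30 5866 kb. Of these genes, SFRP1, a secreted WNT antagonist, started inside H3K27me3 domains of both clones.

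Domains with several gene starts held genes of various tissues. In chr14:23350001-23458000 the starts of SLC22A17, EFS, IL25, CMTM5, MYH6 and MYH7 lay together in 108 kb, with scores of 44.4 and 60.3 and 815 kb from Clone 3. The cardiac microRNA genes MIR208A and MIR208B, hosted by these myosin genes, lay in the same domain. In chr14:20698001-20812000 the 4 starts were those of EDDM3A and EDDM3B, epididymal secretory proteins, and of the ribonuclease genes RNASE6 and RNASE1, 71 kb from Clone 3. The bradykinin receptor genes BDKRB1 and BDKRB2 shared chr14:96122001-96272000.

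Other domains held 3 starts each. CLEC4G and CD209, C-type lectins of endothelial and dendritic cells, lay in chr19:7722001-7752000. CD33, a sialic acid-binding lectin of myeloid cells, SIGLECL1 and IGLON5 lay in chr19:51170001-51328000. TFF1, a trefoil factor secreted by gastric epithelium, TMPRSS3 and UBASH3A lay in chr21:42360001-42410000, 685 kb from Clone 3. CRHR2, a receptor of corticotropin-releasing hormone peptides, and INMT lay in chr7:30660001-30770000. TDRD9, a germ cell RNA helicase, RD3L and ATP5MJ lay in chr14:103922001-103976000, 4041 kb from Clone 3. GALP, a neuropeptide gene, ZSCAN5B and ZSCAN5C lay in chr19:56162001-56216000, with 19.9 CpGs per kb.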

How the data were processed

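ChIP-seq for H3K27me3 and H3K9me3 was done in uninduced HCT116 shUHRF1 clones. The authors trimmed reads with Trim Galore 0.5.0, aligned them to hg38 with Bowtie2 2.3.5, removed duplicates, called domains with Enriched Domain Detector at default settings and kept coordinates found in both replicates. They deposited 5 domain sets, and the clone sets carry 2 score columns per domain, whose deposited scores were used to describe and rank domains and to set apart those with a score shared with another domain. The files give start and end of each domain in bases. They hold no reads, and the study's methods give a minimum depth only, so the depth of each library and the precision it gives are not known here. Overlaps of at least 1 base and gaps were computed with pandas 2.3.3, scipy 1.17.1 and numpy 2.4.6 under Python 3.11.15, after the procedures had been tested on simulated data.

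CpGs, GC and CpG islands (at least 200 bases, 50% GC, observed over expected CpG 0.6) were counted in hg38, and genes came from GENCODE 44. No test was run, since each clone is 1 merged set. Named genes were those starting in the 10 longest domains, the 10 with the highest lower score, the 5 with the most starts (ties kept) or the 5 most distant, genes of the 31 lists, and UHRF1, DNMT1, SFRP1, STC2 and RPL30. Noncoding genes and genes that overlap such a domain without their start, EYS among them, are outside this rule and were named after their values had been seen. The domains and the lists were chosen with earlier results of these data known. H3K9me3 of Clone 6 entered through the clone-shared set alone. Some windows of sequence are not reported here.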

Additional observations from a re-analysis of the deposited data

How the results depend on the processing

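Of 127 values recomputed under other settings, 110 stayed within 1.5 times the value given, or for shares of domains within their 95% Wilson interval. That interval counts domains that share their libraries as separate, so it served as a yardstick and measures no spread between libraries or clones. CpG density, GC content and median distance stayed within 1.5 times in every setting run. For CpG density and GC content this band is wider than their difference from the autosomes. Across settings they ran from 12.7 to 14.0 CpGs per kb and from 45.6% to 47.2% GC. Domains of at least 50 kb numbered 286 and those of at least 100 kb 64, with 10.5 Mb and a median of 144 kb. The upper 50% by lower score held 24.7 Mb. A spacing of 35 bp gave 31.2% low-density CpGs, islands of at least 500 bases 19.4 per Mb in place of 69.0, and gene bodies in place of starts 13.7 genes per Mb. The share within 100 kb of Clone 3 was 24.8% with domains 10 kb apart or less merged and 19.5% with unshared scores only. The share overlapping H3K9me3 was 8.74% at 50 kb or more, 15.6% at 100 kb or more and 2.00% with unshared scores. The share with a start was 39.9% in the upper 50% by score, 39.2% at 50 kb or more, 43.8% at 100 kb or more and 39.7% with unshared scores. The length class of 30 to 80 kb and the restriction to unshared scores were chosen after the data had been seen. By gene bodies, 24 of 31 lists kept their count within 1.5 times, some of them with a larger count, and 7 rose beyond that. These 7 were collagen genes (7), FOX, SOX, TBX and GATA genes (7), sodium and calcium channel genes (6) and cytochrome P450 and UGT genes (5). Also among them were neurotransmitter receptor genes (4), FGF, BMP and GDF ligand genes (1) and imprinted genes (1). Why these values moved was not tested, except that a length minimum removes domains by construction. Leaving out a replicate could not be run, and no paired analysis was possible because each deposited set is 1 merged list. The depth of each library is not known here beyond the study's stated minimum, so the smallest domain that could be called in either clone cannot be given.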

Other observations

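Outside the rule for named genes, and named after their values had been seen, several families of neighbouring genes started in Clone 6-only domains. The secretoglobin genes SCGB1D1, SCGB2A1, SCGB1D2, SCGB2A2 and SCGB1D4, which encode small secreted proteins of glandular epithelia, lay in a group of 3 domains over 162 kb of chromosome 11, 718 kb from Clone 3. FCRL6, SLAMF8, IGSF9 and SLAMF9, mostly receptors of immune cells, joined KCNJ10 and KCNJ9 in a group of 3 domains over 298 kb of chromosome 1. Of the microRNA genes, MIR1-1 and MIR133A2, which are expressed in muscle, lay in chr20:62548001-62590000, 661 kb from Clone 3, and MIR9-3, which is expressed in the nervous system, lay in chr15:89348001-89398000, 518 kb away.

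On chromosome X, which the rule left out, 51 of 153 Clone 6 domains (33.3%) touched no Clone 3 domain, beside 35.1% on the autosomes.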
